A study of Mus musculus with 2 samples.

Results

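Axon guidance genes encode the secreted and membrane-bound ligands, and their receptors, that steer growing axons, and 69 of the 32285 gene rows of the count tables belonged to the families examined here. They were chosen by symbol: Dcc and the Unc5, netrin, netrin-G, Robo, Slit, semaphorin, plexin, Eph and ephrin genes. By family there were 9 EphA and 5 EphB receptors, 5 ephrin-A and 3 ephrin-B ligands, 4 Robo receptors and 3 Slit ligands, 7 class 3 semaphorins and 13 membrane semaphorins, 9 plexins, 4 netrins, 2 netrin-Gs and 5 netrin receptors.

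Single-nucleus RNA sequencing was performed on the thalamus of female C57BL/6J mice aged 3 months, to examine how damage to the cortex changes the region that it is wired to. In the injury group the sensorimotor cortex of 1 side was ablated by aspiration. In the sham group a burr hole was drilled without ablation. The thalamus of the operated side was taken on day 21, and nuclei of 4 mice in equal numbers were pooled, sorted by flow cytometry and loaded as 1 library per group. Strain, sex, age and day of collection were the same in both groups. The mice within a pool cannot be told apart, so there was no replicate, no test was possible, and every interval below is a 95% interval for counting error only.

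The sham library held 16373 nuclei after filtering and the injury library 21777, with medians of 7190 and 6810 unique molecular identifiers (UMIs) per nucleus, and 101 barcodes occurred in both. Levels are given as CPM, the usual scaling of counts to library size, here the UMIs of a gene summed over the nuclei of a class or cluster and divided by all UMIs of those nuclei. The counts were not scaled to gene length, so levels were compared between clusters and libraries and not between genes. Glutamatergic neurons numbered 11694 sham and 12209 injury nuclei, GABAergic neurons 1971 and 3243, oligodendrocytes 943 and 2187, astrocytes 209 and 512, and oligodendrocyte precursors 118 and 184. There were 19 neuron clusters with at least 50 nuclei in each library, 17 of them glutamatergic and 2 GABAergic, and each is called by 2 of its leading genes. Markers of thalamic relay neurons were raised in the Prkcd/Adgrf5, Adamts9/Crybg1 and Fgf10/Heg1 clusters, those of the reticular nucleus in Six3/Ubash3b, and those of the medial habenula in Chat/Nwd2 and Pde11a/Syt6. The largest glutamatergic cluster of the injury library, Sim1/Ebf3, had 0 of the relay markers raised, so the sampled neurons included types without that identity. A further 269 cortex-like nuclei (Neurod6/Dkk3) and 209 dentate-like nuclei (Gpc4/Trpc6) were in the injury library, with 0 in sham, and 414 nuclei of a GABAergic Ano2/Prdm16 cluster stood against 3 in sham. These clusters entered no comparison. The part of dissection and of injury in such differences of composition cannot be told apart.

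In the developing brain, netrins attract axons through Dcc and repel them through Unc5 receptors, Slits repel through Robo receptors, semaphorins act on plexins, and ephrins and Eph receptors signal between touching cells. Thalamic axons use these cues on their way to the cortex, and habenular axons on their way to the midbrain. In adult neurons many of the genes remain expressed, and several of the proteins also act at synapses.

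Robo3, Sema3e, Slit2, Sema4d, Epha7 and Plxnc1 had their highest level in the same habenular cluster in both libraries. The sequence just upstream of the annotated first exon is shown for the first 3, which had the largest folds over the median cluster of these 6. Robo3 (ENSMUSG00000032128) lies at chr9:37415669-37433246 on the minus strand, Sema3e (ENSMUSG00000063531) at chr5:14025276-14256689 on the plus strand, and Slit2 (ENSMUSG00000031558) at chr5:47983138-48307733 on the plus strand of GRCm38. The sequences are those of RefSeq on GRCm38.p6, 5′ to 3′ on the strand of the gene, and capitals mark TAATTA, a core that many homeodomain proteins bind.
Upstream of Robo3, chr9:37433247-37433425, minus strand, 179 bases
Robo3: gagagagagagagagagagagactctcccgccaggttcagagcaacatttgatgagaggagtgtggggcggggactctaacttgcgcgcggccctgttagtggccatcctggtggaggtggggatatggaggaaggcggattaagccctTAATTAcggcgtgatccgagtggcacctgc
Upstream of Sema3e, chr5:14025026-14025275, plus strand, 250 bases
Sema3e: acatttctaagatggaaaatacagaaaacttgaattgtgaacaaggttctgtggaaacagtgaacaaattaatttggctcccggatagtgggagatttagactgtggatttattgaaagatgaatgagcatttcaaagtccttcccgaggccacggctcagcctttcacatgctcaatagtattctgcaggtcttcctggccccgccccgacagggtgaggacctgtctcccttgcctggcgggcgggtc
Upstream of Slit2, chr5:47982905-47983137, plus strand, 233 bases
Slit2: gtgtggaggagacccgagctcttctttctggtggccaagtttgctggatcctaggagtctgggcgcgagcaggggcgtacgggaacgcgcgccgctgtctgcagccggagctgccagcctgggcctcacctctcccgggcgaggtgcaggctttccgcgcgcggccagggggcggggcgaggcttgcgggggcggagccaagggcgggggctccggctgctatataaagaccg
The Robo3 window held TAATTA once and the other windows did not hold these letters. TAATTA reads the same on both strands. Over 32536 distinct upstream windows of 250 bases, 4.84% held it, and among 75 such windows of 59 members 3 did (4%), those of Efna1, Epha5 and Robo3. The windows also differed in base composition, with a GC content of 58.1% upstream of Robo3, 48% upstream of Sema3e and 70.4% upstream of Slit2.

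Across neuron types the members ranged from nearly flat to concentrated in a few clusters. Of the 69 members, 60 had at least 100 neuronal UMIs in each library and were counted. The median member was 2.71-fold higher in its highest cluster than in its median cluster, taking the lower of both libraries. This fold was over 4 for 17 members and under 2 for 23. The highest cluster was the same in both libraries for 30 of the 60 (50%). The folds and this count were not computed over all genes, so whether the members differ from other genes here is not shown. For many members the intervals of the highest and second cluster overlapped, so the order of these clusters is not firm. Robo2 in injury was such a case (824 and 794 CPM). The levels of a member over the 19 clusters, on a log scale, correlated between the libraries with a median Pearson r of 0.92 and a lowest of 0.49 (Sema4f). This is a description, since the libraries share the clustering. By family, the median fold was 24.3 for class 3 semaphorins, the secreted ones (5 genes), and 1.56 for plexins, the semaphorin receptors (8 genes). Without the Corin/Postn cluster, whose sham and injury nuclei differ in their leading genes, the median for class 3 semaphorins was 10.0, the fold of Sema3a. Ligands as a whole had a median fold of 2.94 (32 genes) and receptors 2.13 (28 genes). The 9 members that were too low to count were Efna1, Efna4, Epha2, Ephb4, Ntn5, Plxnb3, Robo4, Sema3b and Sema3g. The free RNA estimated from markers of other cell types was 5.45% to 23.9% of the library-wide level in neuron clusters, so a level far below the library-wide level of a gene cannot be told apart from free RNA. A measured level includes any free RNA, so where the estimate is above the level, the estimate is too high for that gene. Such an estimate marks a level as uncertain and does not show it to be background.

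**Figure D1:**
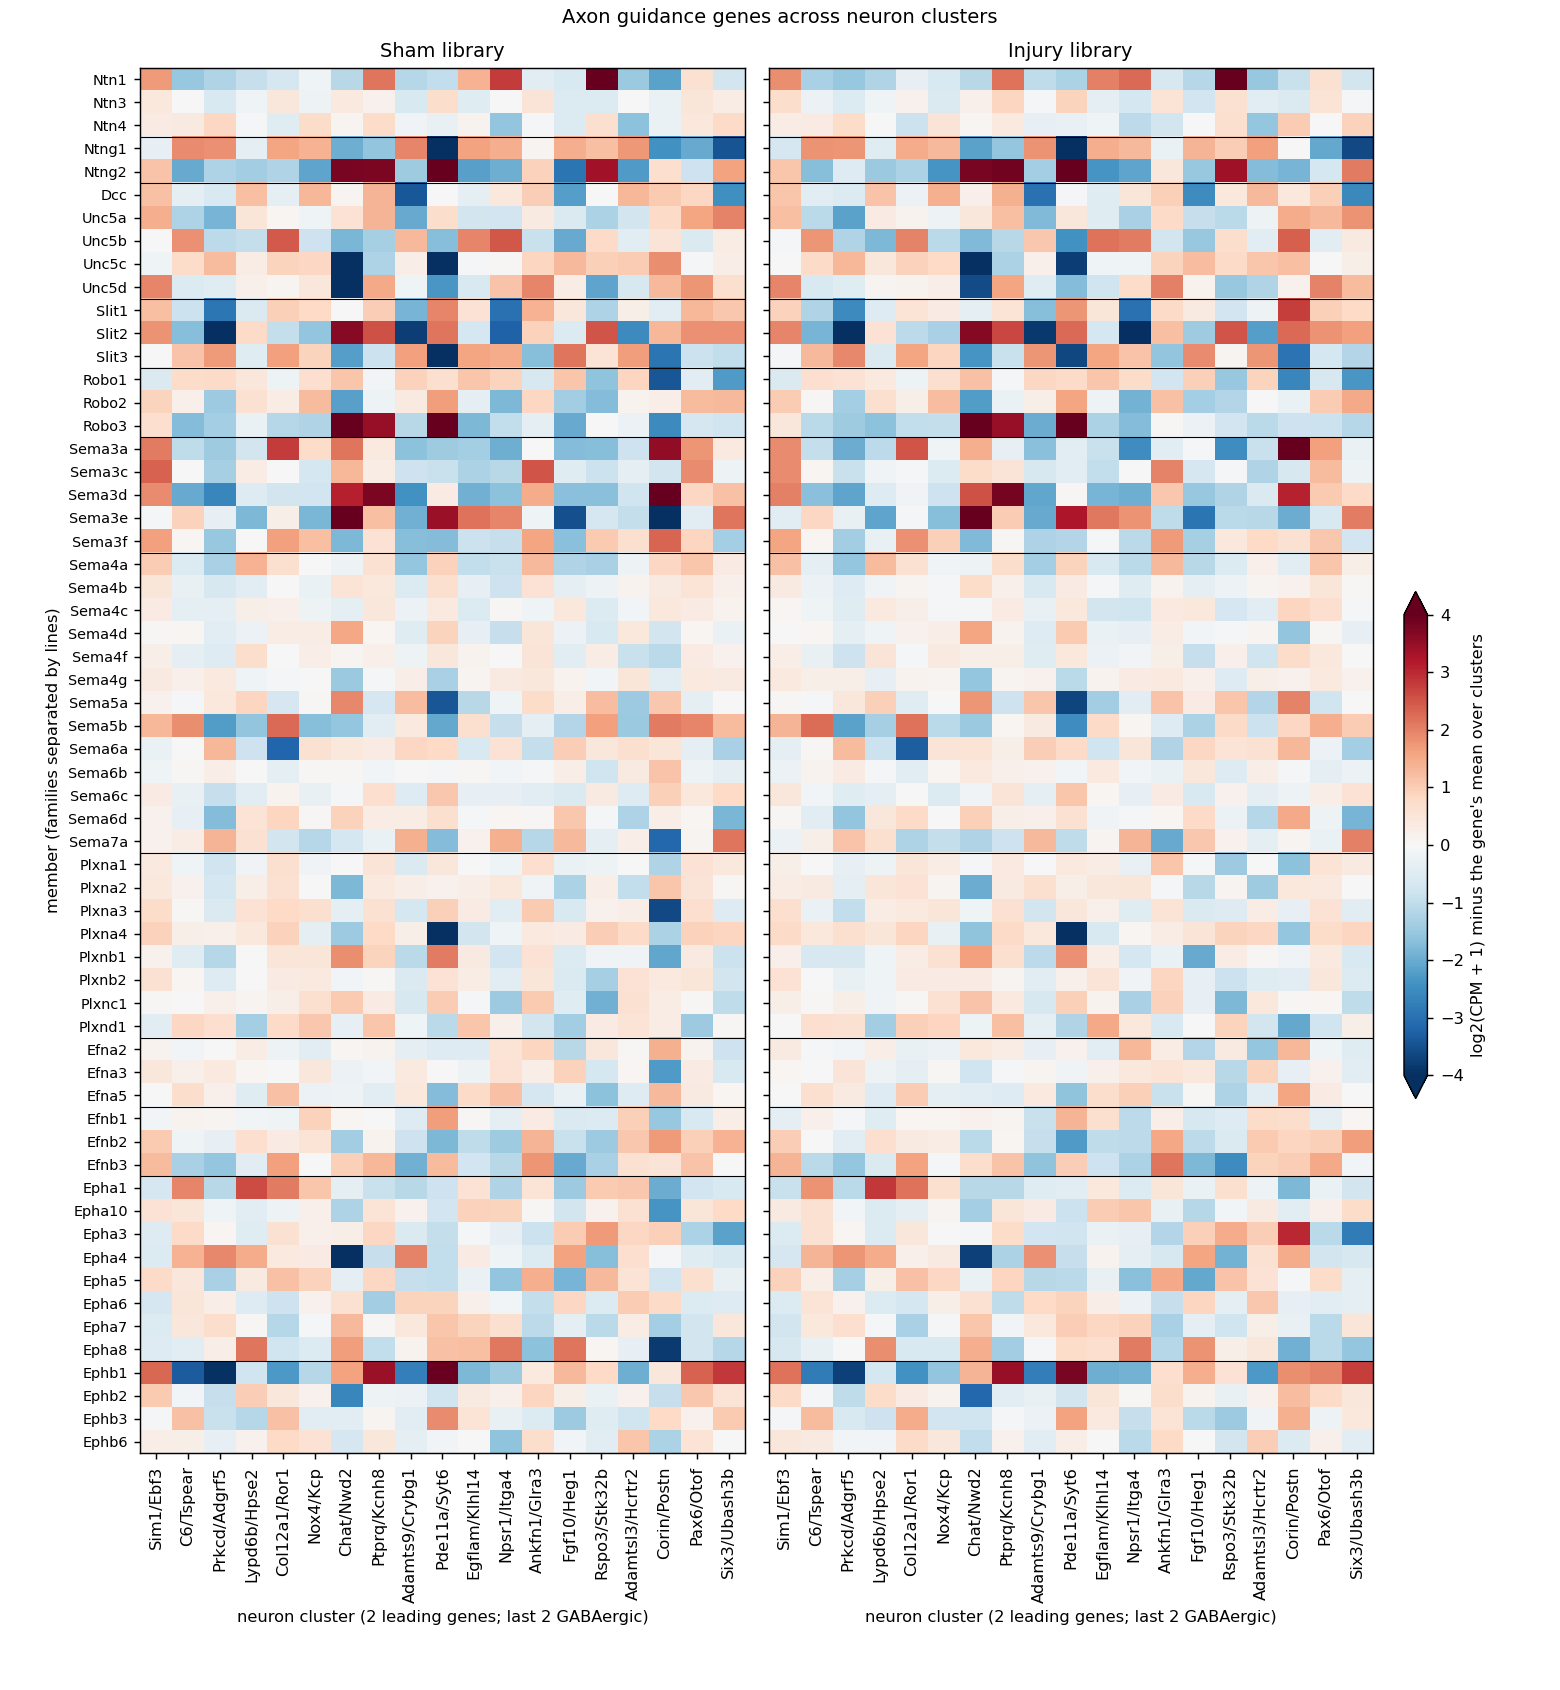
Levels of the 60 counted members (vertical axis, families separated by lines) in 19 neuron clusters (horizontal axis), with the sham library on the left and the injury library on the right. Colour is log2(CPM + 1) minus the mean of that gene over the clusters of the library, from blue (lower) to red (higher). Robo3, Ntng2 and Ntn1 are red in a few clusters in both panels, most plexin and membrane semaphorin rows are pale, and the Corin/Postn column differs most between the panels.

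The sharpest pattern was that of Robo3, the Robo receptor of commissural neurons. It reached 728 CPM in sham (2165 UMIs, interval 698 to 760) and 754 CPM in injury (3805 UMIs, 731 to 779) in the Chat/Nwd2 cluster of medial habenula-like neurons. The Pde11a/Syt6 cluster, also medial habenula-like, followed with 219 and 208 CPM, and the Ptprq/Kcnh8 cluster with 64.8 and 69.7. In the median cluster Robo3 was at 2.41 CPM in sham and 2.27 in injury, so the lower of the folds was 302. These median levels lie below the medians of 4.11 and 4.21 CPM estimated for free RNA, so the fold has no firm denominator. Robo3 was above free RNA in both libraries in 4 of the 19 clusters, the 3 just named and Sim1/Ebf3. No other compared cluster exceeded 8.48 CPM, the sham level of Sim1/Ebf3, and both GABAergic clusters lay between 1.88 and 2.71 CPM. Robo1 and Robo2, the broad Robo receptors, were spread differently. Robo1 stood out in no cluster, with a highest level only 1.39-fold over the median. Its lowest level, in Corin/Postn at 259.9 CPM in sham and 427 in injury, was below the 865 and 632 CPM estimated for free RNA there. Robo2 was highest in Pde11a/Syt6 (917 and 824 CPM) and lowest in Chat/Nwd2 (62.6 and 57.7 CPM), the cluster where Robo3 was highest.

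Slit ligands differed from each other over the same clusters. Slit2 was highest in Chat/Nwd2, at 1162 CPM in sham and 1113 in injury, and next came Ptprq/Kcnh8 (543 and 552 CPM) and Rspo3/Stk32b (528 and 496), whose sham intervals overlapped. It was lowest in the relay-like Prkcd/Adgrf5 cluster in sham (3.94 CPM) and in Npsr1/Itga4 in injury (4.13 CPM). Slit3 showed a different order. It was highest in sham in the relay-like Fgf10/Heg1 cluster at 789 CPM and in injury in Prkcd/Adgrf5 at 776, and lowest in Pde11a/Syt6 at 6.95 and 15.6 CPM. Slit1 was highest in Pde11a/Syt6 in sham at 141 CPM (175 in injury) and had 3.94 CPM in sham and 7.93 in injury in Prkcd/Adgrf5. Slit3 was thus high in Prkcd/Adgrf5, where Slit2 was low, and low in Pde11a/Syt6, where Slit2 was at 411 and 423 CPM. Slit2 and Slit3 each overlap a gene on their own strand, with which reads could be shared. Slit2 also overlaps a gene on the other strand, and whether the counting used strand was not stated. Ntng2, Ntn1 and Ephb1, described below, overlap a gene on their own strand too.

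**Figure D2:**
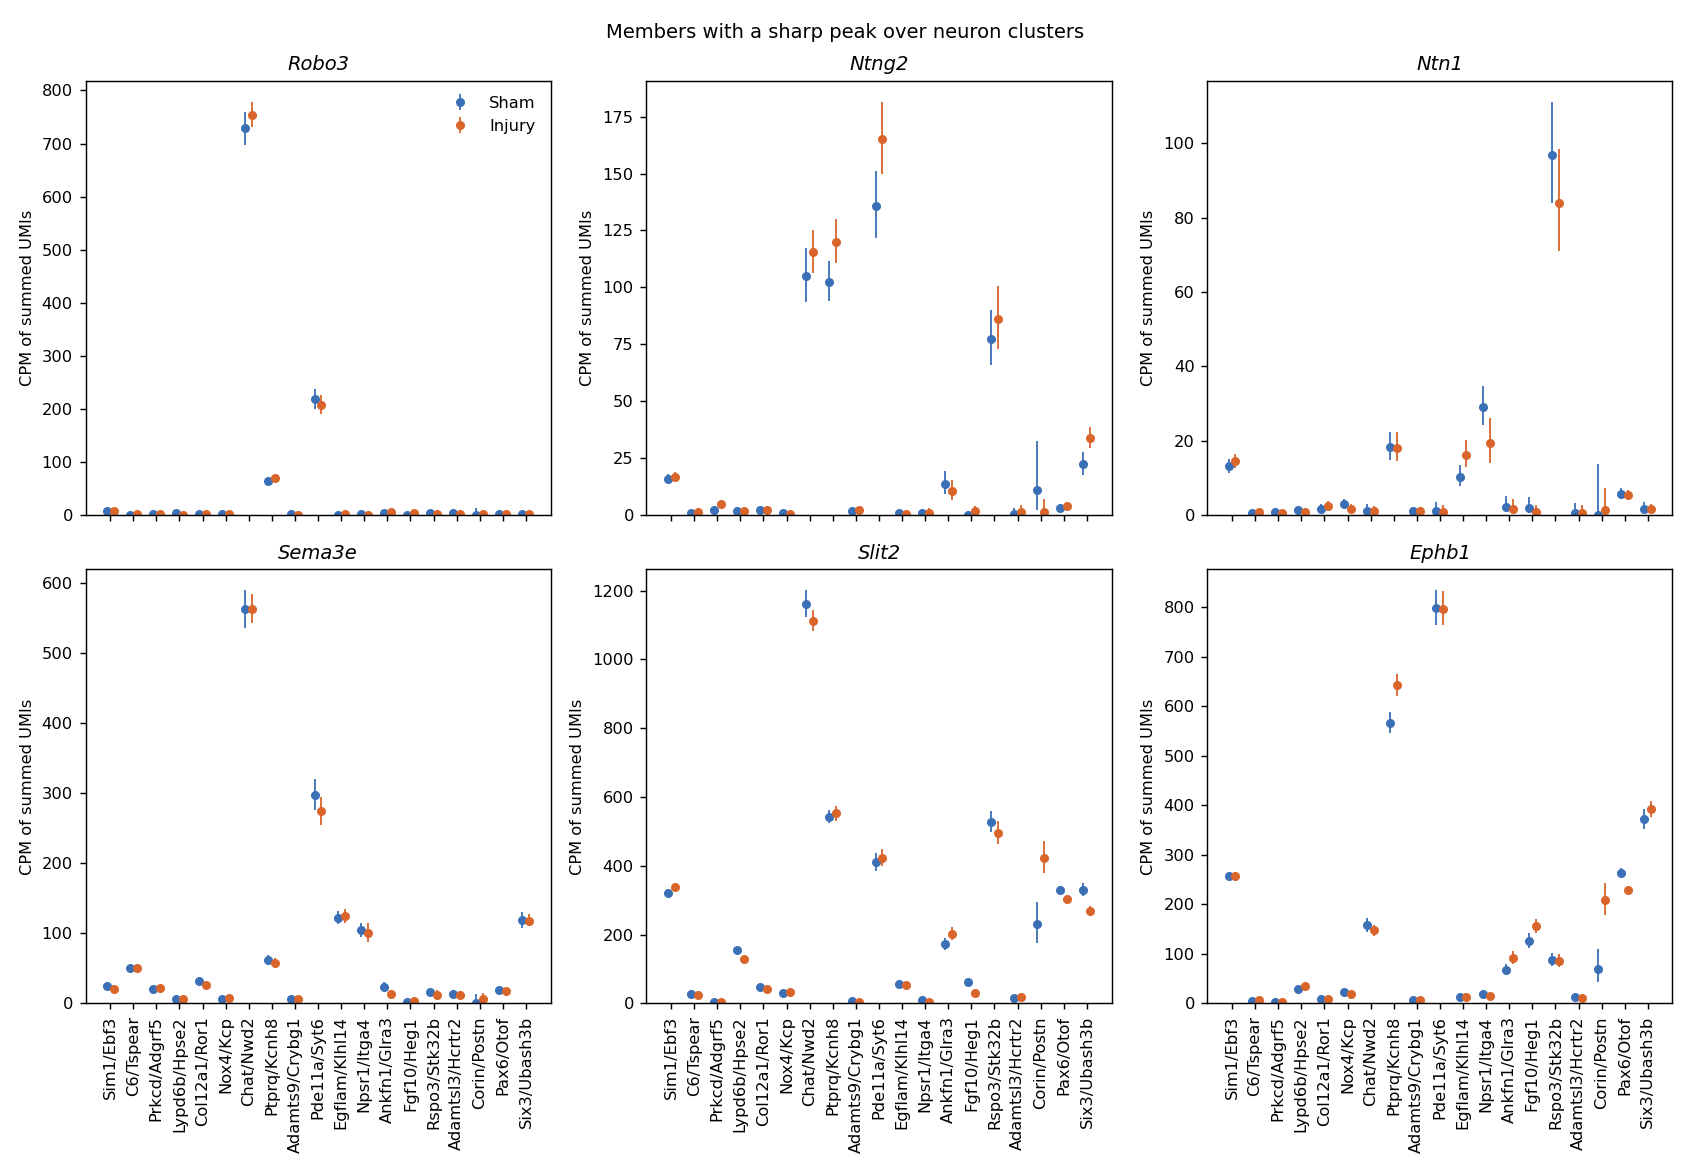
Levels (CPM of summed UMIs, linear axes from 0) of Robo3, Ntng2, Ntn1, Sema3e, Slit2 and Ephb1 in the 19 neuron clusters, blue for sham and orange for injury, with exact Poisson 95% intervals. Robo3, Sema3e and Slit2 peak in Chat/Nwd2, Ntng2 and Ephb1 in Pde11a/Syt6 and Ntn1 in Rspo3/Stk32b, in both libraries.

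Among the netrin genes, the membrane-anchored netrin-Gs had opposite patterns. Ntng1, the netrin-G of thalamocortical axons, was highest in the relay-like Adamts9/Crybg1 cluster at 5492 CPM in sham and 4890.0 in injury. C6/Tspear followed at 5179 and 4865 CPM, and in injury the intervals of these clusters overlapped. Ntng1 was lowest in Pde11a/Syt6 at 79.3 and 85.8 CPM. Ntng2 was highest in that last cluster, at 136 CPM in sham (interval 121 to 151) and 165 in injury (150.0 to 182), and followed in Chat/Nwd2 at 105 and 116 CPM and in Ptprq/Kcnh8 at 103 and 120.0, levels that did not differ beyond their intervals within a library. Its median cluster had 2.31 and 2.42 CPM, against medians of 2.22 and 2.26 CPM estimated for free RNA, so a fold over it has no firm denominator. Ntn1, a secreted netrin, was highest in Rspo3/Stk32b at 96.9 CPM in sham (84.0 to 111) and 83.9 in injury (71.1 to 98.3), and followed in Npsr1/Itga4 at 29.1 and 19.3. It was 53.7-fold over its median cluster, which had 1.76 CPM in sham and 1.56 in injury. The medians estimated for free RNA were 1.09 and 0.795 CPM, and Ntn1 was above free RNA in both libraries in 7 of the 19 clusters. The denominator of this fold is thus also not firm. Rspo3/Stk32b has an endothelial marker, Flt1, among its leading genes and was therefore left out of the glutamatergic class.

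Of the netrin receptors, Unc5c and Unc5d, which mediate repulsion, were lowest in the Chat/Nwd2 cluster. Unc5c was at 30.6 CPM there in sham and 34.5 in injury, against medians of 1058 and 1127. Unc5d was at 12.1 and 23.2 CPM there, against 1082 and 1108 in Sim1/Ebf3. Dcc, the receptor for attraction, was lowest in the relay-like Adamts9/Crybg1 cluster at 85.2 and 97.4 CPM and was at its sham highest in Ptprq/Kcnh8 at 2295 CPM, with 2094 in injury. Unc5a was highest in the reticular-like Six3/Ubash3b cluster in both libraries (35.6 and 38.6 CPM). Unc5b was 8.34-fold over its median cluster and highest in Npsr1/Itga4 in sham (31.8 CPM) but in Corin/Postn in injury (37.3 CPM).

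The counted class 3 semaphorins, which act through neuropilins and plexins, each had a different highest cluster in injury. Sema3e was highest in Chat/Nwd2 at 562 CPM in sham and 563 in injury, then in Pde11a/Syt6 at 298 and 274. Sema3c was highest in Ankfn1/Glra3 at 44.5 and 44.4 CPM, with Sim1/Ebf3 (39.5 and 41.5) within its interval. In sham the highest CPM values of Sema3d, Sema3a and Sema3f were in Corin/Postn, from 38, 15 and 6 UMIs, and overlapped in their intervals with those of the next cluster. Sema3d was at 141 CPM there and at 104 in Ptprq/Kcnh8, its highest cluster in injury (104 CPM). Sema3a was highest in Corin/Postn in both libraries, and outside that cluster in Col12a1/Ror1 at 32.5 and 30.8 CPM. Sema3f was at 22.3 CPM in Corin/Postn in sham (interval 8.17 to 48.5) and highest in injury in Col12a1/Ror1 at 13.5 CPM. Of the membrane semaphorins, Sema7a was highest in Six3/Ubash3b (38.0 and 35.9 CPM), Sema4d in Chat/Nwd2 (199.5 and 249) and Sema5b in Col12a1/Ror1 in sham (51.0) and C6/Tspear in injury (45.6). Sema5a was at 578 CPM in Chat/Nwd2 in sham and 579 in injury and lowest in Pde11a/Syt6 (13.5 and 12.5). Sema6a was lowest in Col12a1/Ror1 (15.4 and 14.9 CPM) against medians of 196 and 217.

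Plexins, the semaphorin receptors, had the lowest median fold of the families, and several were low in single clusters. Plxna4 was at 13.1 CPM in sham and 10.9 in injury in Pde11a/Syt6, against medians of 281 and 354, and highest in Rspo3/Stk32b at 437 and 465. Plxnc1, the receptor of Sema7a, was highest in Chat/Nwd2 at 139.6 and 161 CPM and lowest in Rspo3/Stk32b at 16.7 and 19.9. Plxna2 was lowest in Chat/Nwd2 at 31.3 and 27.0 CPM, against medians of 130.4 and 135. Plxnb1 had the largest fold of the plexins, 4.01, and was highest in Pde11a/Syt6 at 16.8 and 17.9 CPM. Plxna1 was highest in Ankfn1/Glra3 at 30.1 and 40.1. Plxna2, Plxna3, Plxnb2 and Plxnd1, 4 of the 8 counted, had their highest level in different clusters in the libraries.

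Eph receptors were highest in many different clusters. Ephb1 was highest in Pde11a/Syt6, at 799 CPM in sham and 798 in injury, and lowest in Prkcd/Adgrf5, at 2.38 and 3.33. Epha4 was highest in Adamts9/Crybg1 (459 and 431 CPM) and Prkcd/Adgrf5 (437 and 405) and lowest in Chat/Nwd2 (5.72 and 8.13), where Ephb2 was also lowest (7.40 and 5.95). Epha7 was highest in Chat/Nwd2 (541 and 455 CPM), Epha5 in Ankfn1/Glra3 (1257 and 1236), Epha6 in Adamtsl3/Hcrtr2 (2476 and 2358) and Epha1 in Lypd6b/Hpse2 (23.5 and 23.8). Epha8 had its highest levels in Lypd6b/Hpse2 in sham (61.5 CPM) and Npsr1/Itga4 in injury (56.5). Epha3 was lowest in the reticular-like Six3/Ubash3b cluster (29.7 and 17.8 CPM). The counted ephrins, their ligands, had folds of 1.96 to 3.98, against 1.66 to 12.7 for EphA and 1.87 to 9.26 for EphB receptors. Efna5 was highest in Corin/Postn (687 and 866 CPM) and lowest in Pde11a/Syt6 (83.8 and 92.5), Efnb3 was highest in Ankfn1/Glra3 (19.2 and 24.1), and Efna2, Efna3 and Efnb2 had low levels with folds of 3.26, 1.96 and 3.13.

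To compare the operations, a member was counted as past the fold where the log2 ratio of its CPM, injury over sham, was at least 0.5 in size, its 95% interval left out 0, and it had at least 100 UMIs over both libraries. In glutamatergic neurons 60 members could be counted, and 0 were past the fold in either direction, against 3.11% of all genes higher and 2.48% lower in injury. The median log2 ratio of the members was 0.00, as it was over all genes, with 31 above 0 and 29 below. The range was -0.39 to 0.49.

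Sema3a and Robo3 came nearest to the limit in glutamatergic neurons. Sema3a was at 7.72 CPM in sham and 10.8 in injury (log2 ratio 0.49, interval 0.36 to 0.62). Without the Corin/Postn cluster its ratio was -0.03, and with each cluster given the same weight in both libraries 0.28. It was past the limit with the mean CPM of single nuclei (0.81), with nuclei thinned to 3000 UMIs (0.76) and at clustering resolution 1.0 (0.502). Robo3 was at 31.2 CPM in sham and 43.7 in injury (0.48, 0.42 to 0.55), and with equal cluster weights the ratio was 0.04, while without called doublets it was past the limit (0.523). The Chat/Nwd2 cluster, which held most Robo3, had 580 sham and 929 injury nuclei. Slit2 likewise went from 0.18 to -0.01 with equal weights. With equal weights Slit1 (0.29) and Plxna4 (0.24) moved little, to 0.26 and 0.24, while Slit3 (0.22) moved beyond its interval, to 0.26. Without the Corin/Postn cluster the ratio of Slit1 was 0.227, also beyond its interval.

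Ratios of receptors with many UMIs lay on both sides of 0 in glutamatergic neurons. Dcc went from 1208 to 1058 CPM (log2 ratio -0.19) and Robo1 from 3986 to 3586 (-0.15), while Plxnc1 (0.14), Ephb2 (0.14) and Ephb1 (0.13) were above 0, as was Plxna4. Ntng1 went from 3399 to 3016 CPM (-0.17). All 8 EphA receptors counted were below 0, with a median of -0.13 and a range of -0.27 (Epha1) to -0.00 (Epha4), all short of the fold, where 8704 of 17691 genes were below 0. The 7 EphA receptors counted in GABAergic neurons were also below 0, from -0.49 (Epha8) to -0.00 (Epha3), where 6718 of 13568 genes were. Sema4d (0.32), Ntng2 (0.32), Plxnb1 (0.34) and Sema3c (0.39) were above 0 in glutamatergic neurons, and Plxna3 (-0.39) and Efna3 (-0.32) below.

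**Figure D3:**
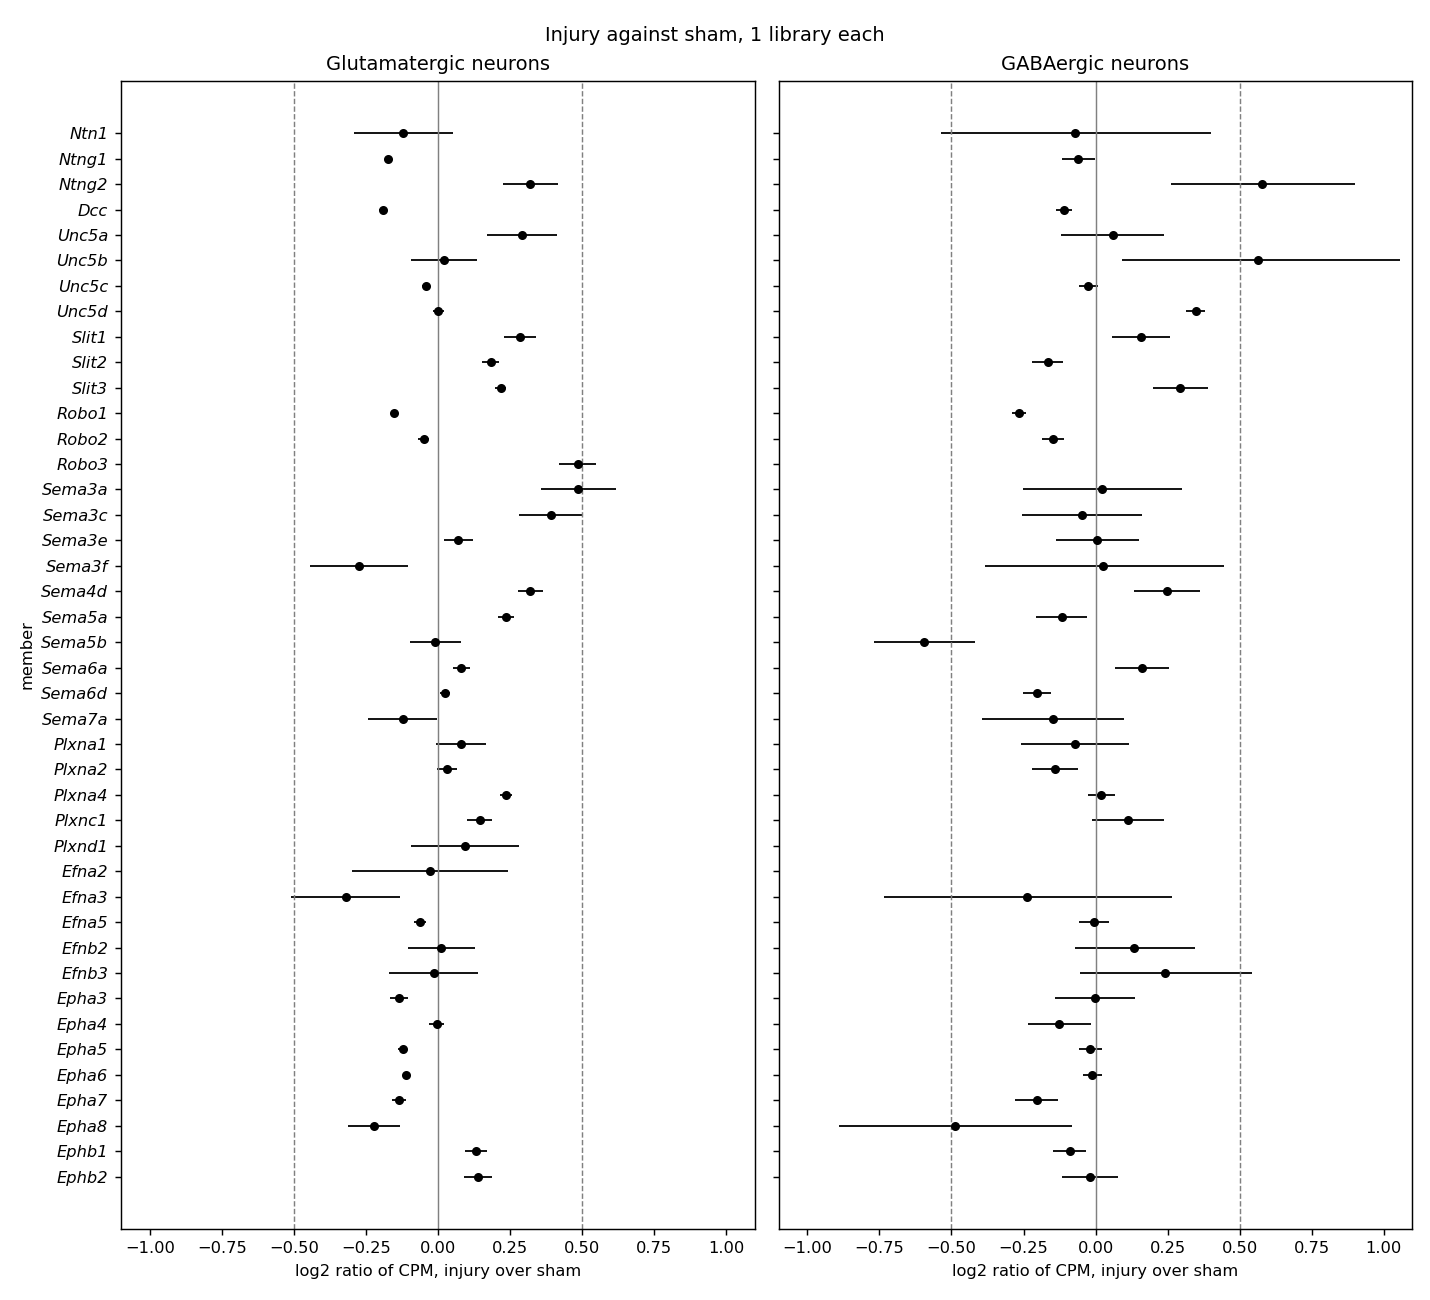
Log2 ratios of CPM, injury over sham, of named members in glutamatergic (left) and GABAergic (right) neurons, with 95% counting intervals as bars and dashed lines at -0.5 and 0.5. In glutamatergic neurons every point lies between the dashed lines. In GABAergic neurons Ntng2 and Unc5b lie above and Sema5b below. Efna2 and Robo3 have no point on the right because they had under 100 UMIs there.

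In GABAergic neurons 54 members could be counted, of which 2 were higher and 1 was lower past the fold (3.70% and 1.85%), against 3.63% and 2.53% of all genes. These shares are near the background. The median ratio was -0.04 (19 above 0, 35 below), against 0.00 over all genes. Ntng2 had 117 UMIs in sham and 285 in injury, or 8.33 and 12.4 CPM (log2 ratio 0.58, interval 0.26 to 0.90). In the Six3/Ubash3b cluster, which held most of it, Ntng2 went from 22.2 to 33.9 CPM. Unc5b had 53 and 128 UMIs, or 3.77 and 5.58 CPM (0.57, 0.09 to 1.06). With the mean CPM of single nuclei Ntng2 was at 0.23 and Unc5b at 0.22, short of the fold. With thinning 0 members were higher past the fold, while the ratios were 0.48 for Ntng2 and 0.54 for Unc5b. Sema5b, a membrane semaphorin, had 517 and 559 UMIs, or 36.8 and 24.4 CPM (-0.59, -0.77 to -0.42), and in the Pax6/Otof cluster alone 41.0 and 26.4 CPM. Unc5d, with far more UMIs, stayed short of the fold, at 801 CPM in sham and 1020.1 in injury (0.35, 0.32 to 0.38), and Robo1 went from 1623 to 1349 CPM (-0.27).

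By neuron cluster, 726 pairs of a member and a cluster had at least 100 UMIs, and 35 were higher and 19 lower past the fold in injury (4.82% and 2.62%), against 2.59% and 3.47% of all pairs of gene and cluster. The Corin/Postn cluster gave 14 of the higher and 6 of the lower pairs, out of 21 members tested there (95.2%), where 31.4% of all genes were past the fold. It had 70 sham and 173 injury nuclei. Its leading genes Corin and Postn were themselves nearly missing in sham, with 3 UMIs against 208 and 5 UMIs against 216, while Ebf2, another leading gene, was at 1853 and 1740.5 CPM. The sham and injury nuclei of this cluster are thus not shown to be the same neurons. Without it, 705 pairs remained, with 21 higher and 13 lower (2.98% and 1.84%), against 2.43% and 3.34% of all pairs.

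**Figure D4:**
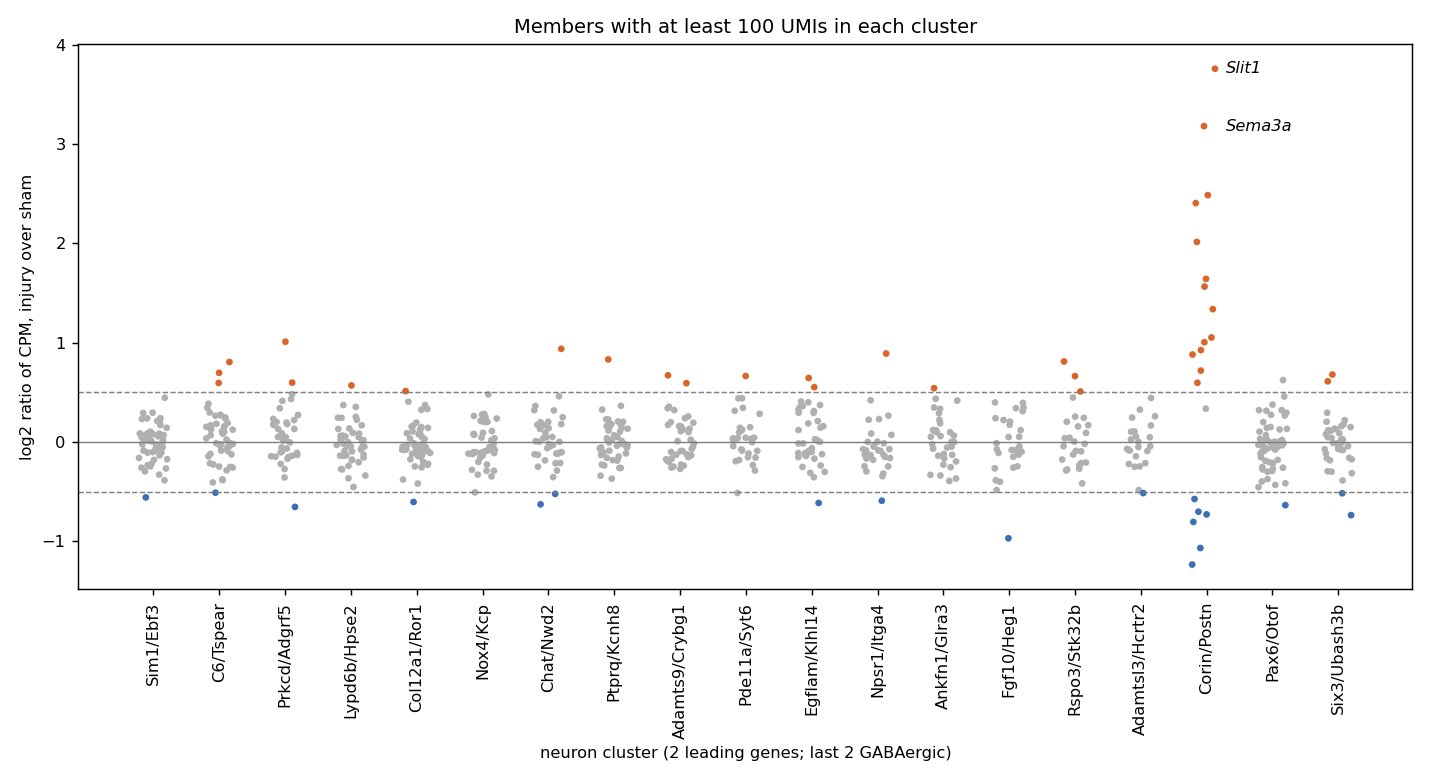
Log2 ratios of CPM, injury over sham, of members with at least 100 UMIs in each of 19 neuron clusters (horizontal axis), 1 point per member. Orange and blue points are past the fold, with intervals that leave out 0, and dashed lines mark -0.5 and 0.5. In Corin/Postn 14 points are orange and 6 blue, and elsewhere no point exceeds 1.01 in size.

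Within Corin/Postn, the largest ratios were those of Slit1 and Sema3a. Slit1 had 7 UMIs in sham and 273 in injury, or 25.99 and 351 CPM (log2 ratio 3.76, interval 2.69 to 5.09). Sema3a had 15 and 392 UMIs, or 55.7 and 505 CPM (3.18, 2.44 to 4.03). Receptors differed there too. Ephb2 (2.48), Epha3 (2.01), Epha4 (1.64), Ephb1 (1.56) and Epha7 (1.004) were higher, as were Ntng1 (2.40), Sema6d (1.34) and Sema5a (1.05). Epha6 (-1.24), Unc5d (-1.07), Dcc (-0.81) and Unc5c (-0.70) were lower. The sham levels of Slit1, Ephb2, Epha7 and Ntng1 were not above free RNA, which for Ntng1 was estimated at 709 CPM against a level of 264, so their ratios have no firm denominator. These values describe nuclei that cluster together and differ in their own leading genes.

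In the other clusters the ratios were smaller, and 2 of the 21 higher pairs and 0 of the 13 lower ones were not above free RNA in either library, those of Unc5d in Chat/Nwd2 and Ephb1 in C6/Tspear. The ligand Slit1 was higher in Prkcd/Adgrf5 (43 and 100 UMIs, log2 ratio 1.01, interval 0.48 to 1.56, with a sham level of 3.94 CPM against 3.84 for free RNA), Adamts9/Crybg1 (0.67) and Lypd6b/Hpse2 (0.57). Its level in those clusters, 7.93 CPM in Prkcd/Adgrf5 and 14.8 in Adamts9/Crybg1 in injury, remained far below that in Pde11a/Syt6. Slit2 was lower in Fgf10/Heg1 (133 and 101 UMIs, -0.97), a ratio that was short of the fold with nuclei thinned. Sema4d was higher in Npsr1/Itga4 (0.89) and Rspo3/Stk32b (0.81), and Sema3c in Ptprq/Kcnh8 (0.83).

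Unc5d, the repulsive netrin receptor at chr8:28646717-29219636 on the minus strand, was past the fold in several clusters. It was higher in the reticular-like Six3/Ubash3b cluster, at 1625 UMIs in sham and 4454 in injury, or 435 and 696 CPM (0.68, interval 0.60 to 0.76). It was also past the fold in Chat/Nwd2 (0.94), Pde11a/Syt6 (0.66) and Rspo3/Stk32b (0.66), where its level was low. In Chat/Nwd2 its 12.1 and 23.2 CPM lie below the 64.4 and 80.3 CPM estimated for free RNA and cannot be told apart from it. In the other two, the sham levels of 54.0 and 63.5 CPM were also below free RNA (73.6 and 66.2 CPM), and the injury levels of 85.5 and 100.4 were above it (55.8 and 45.7 CPM). In Adamtsl3/Hcrtr2 it was lower (-0.52). Plxna4 was higher in the relay-like Prkcd/Adgrf5 cluster, at 2820 and 4930 UMIs, or 258.5 and 391 CPM (0.60, 0.53 to 0.66). Plxna3 was lower in Prkcd/Adgrf5 (-0.65), Col12a1/Ror1 (-0.61) and C6/Tspear (-0.51). The 3 antisense genes that overlap Plxna4 could share reads with it if strand was not used.

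Co-receptors and partners of the members (20 genes such as Nrp1, Neo1 and Rgma) and signalling and cytoskeletal genes (33 such as Dpysl2, Pak1 and Trio) were counted in the same way. In glutamatergic neurons 19 and 33 of them could be counted and in GABAergic neurons 18 and 31. In either class 0 were past the fold in either direction. Of all genes, 3.11% were higher and 2.48% lower in glutamatergic neurons, and 3.63% and 2.53% in GABAergic neurons. The lists are small, and whether their counts differ from these shares was not tested. Their median ratios were 0.05 and 0.03 in glutamatergic neurons and 0.00 and -0.02 in GABAergic neurons.

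Some members were read in glial nuclei above free RNA. Free RNA gives every nucleus some neuronal UMIs, so a glial level was set against that free RNA would give, as the level over the whole library times a share set by neuronal markers in that glial class (12.1% and 12.9% in oligodendrocytes, 8.25% and 7.83% in astrocytes, 26.1% and 26.5% in precursors). The lower end of the counting interval was above that level in both libraries for 23 of the 69 members in oligodendrocytes, 27 in astrocytes and 29 in precursors. Among the 61 members with at least 100 UMIs in each library these were 36.1%, 42.6% and 47.5%, against 67.0%, 64.1% and 49.8% of the 16691 genes with as many UMIs. For some members the level lay below the estimate, as for Ntng1 in precursors in sham (206 against 775 CPM). The estimate is too high for these, and the shares depend on it. Oligodendrocytes held Plxnb3, a receptor of Sema5a, at 159 CPM in sham and 165 in injury, against 0.322 and 0.413 in glutamatergic neurons. They also held Efnb3, a ligand in myelin, at 201 and 158 CPM, Unc5b at 83.8 and 104, and Ephb1 at 597 and 695. Precursors held Ntn1 at 296 and 285 CPM, Sema3d at 459.7 and 379, Sema5b at 204 and 276 and Dcc at 2271 and 2009. Astrocytes held Sema4a at 90.4 and 99.5 CPM and Plxnb1 at 74.9 and 95.3. Sema6d was at 835 and 1088 CPM in astrocytes and at 1054 and 1063 in precursors.

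**Figure D5:**
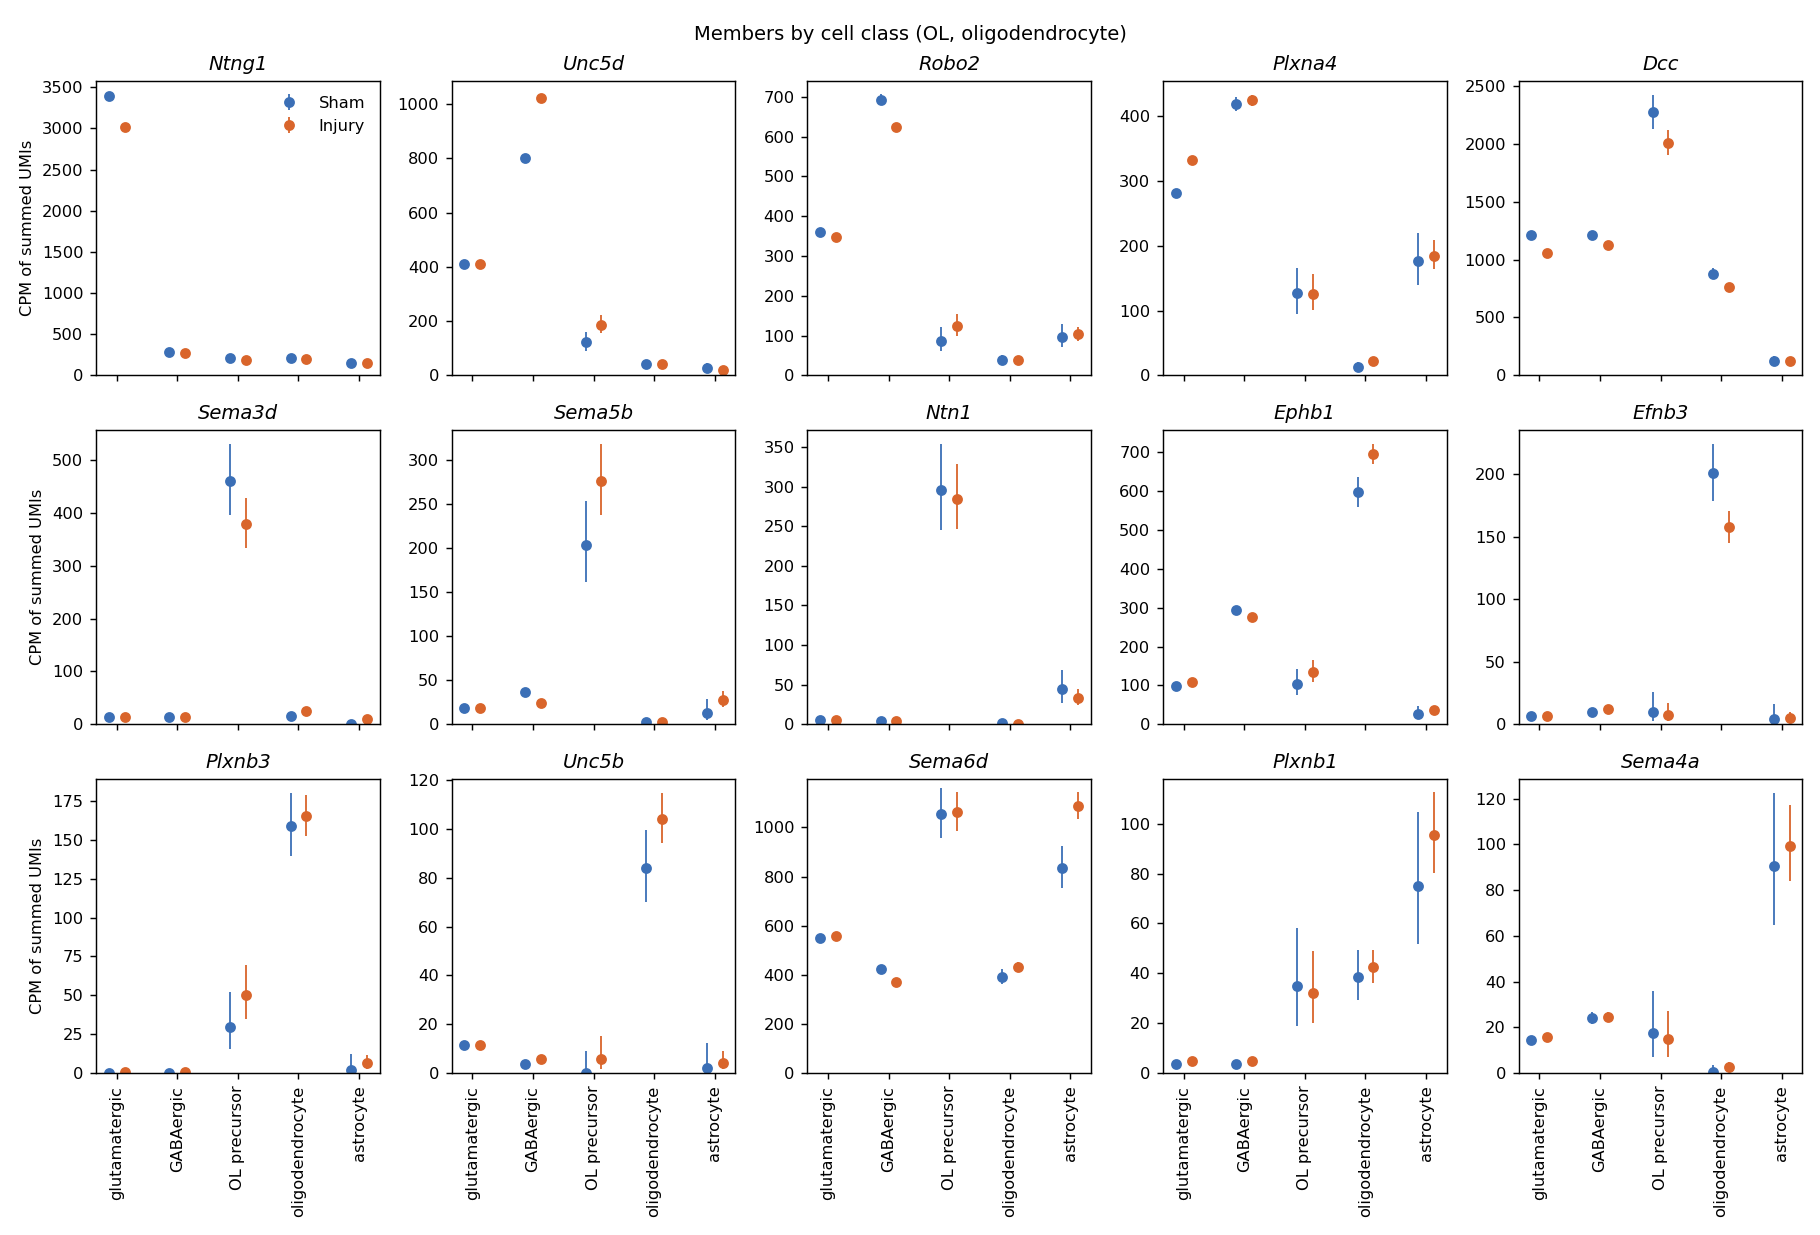
Levels (CPM of summed UMIs, linear axes from 0) of 15 members in glutamatergic and GABAergic neurons, oligodendrocyte (OL) precursors, oligodendrocytes and astrocytes, blue for sham and orange for injury, with exact Poisson 95% intervals. Ntng1 is highest in glutamatergic neurons, Ntn1 and Sema3d in precursors, Plxnb3, Efnb3 and Unc5b in oligodendrocytes, and Sema4a and Plxnb1 in astrocytes, in both libraries.

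Between the operations, members were counted in oligodendrocytes and astrocytes, and precursors were left out. In oligodendrocytes 26 members could be counted, of which 1 was higher and 1 was lower past the fold (3.85% each), against 4.11% and 4.83% of all genes. These shares are near the background. The median was 0.07, against -0.03 over all genes. The higher member was Slit3, with 18 and 98 UMIs (11.7 and 25.7 CPM, log2 ratio 1.13, interval 0.40 to 1.95). These levels lie below the 39.3 and 49.6 CPM estimated for free RNA and cannot be told apart from it. The lower was Sema7a, with 42 and 69 UMIs (27.3 and 18.1 CPM, -0.59, interval -1.17 to -0.00), at the edge of its interval. In astrocytes 15 members could be counted and 0 were past the fold in either direction, against 7.75% and 4.76% of all genes. The most counted member, Sema6d, had a ratio of 0.38 (0.22 to 0.55). Median UMIs per astrocyte nucleus were 1892 in sham and 2549.5 in injury, and the part of depth in this ratio was not tested.

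Of the co-receptors and partners, 10 were counted in oligodendrocytes, with 1 higher and 1 lower (10% each, against 4.11% and 4.83% of all genes). Dscaml1, a homophilic adhesion molecule, was higher (960.0 and 1502 CPM, log2 ratio 0.65) and Flrt3, an Unc5 ligand, was lower (-0.61). Of 22 signalling genes 3 were higher (13.6%) and 0 lower, and the higher ones were Dpysl5 (0.83), Farp1 (0.73) and Enah (0.51). Dscaml1, Enah and Flrt3 were above free RNA in both libraries, while Dpysl5 (14.3 and 25.4 CPM, against 11.6 and 12.5 of free RNA) and Farp1 (42.2 and 70.0, against 32.9 and 34.9) were above it in injury and not in sham. In astrocytes 0 of 9 co-receptors were past the fold, against 7.75% of all genes higher and 4.76% lower.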

How the data were processed

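The deposited tables hold raw UMI counts per gene and barcode, which the authors made with Cell Ranger 6.0.2 against GRCm38 (mm10). The submitters' processing notes also name Seurat 4.0. Whether introns or strand were used was not given in the sources used here. Nuclei with a mitochondrial share above 2% or with under 200 or over 7500 genes were left out. Symbols, coordinates and overlaps are from GENCODE on GRCm38. The libraries were integrated and clustered with Seurat 5.3.0 (R 4.3.3; 2000 variable features, of which 1966 were left without the members and pathway genes, 30 components, resolution 0.5). Nuclei were scored for doublets with Scrublet (scanpy 1.11.5). Those with the highest scores were called, up to an expected share set by the number of nuclei, 13.1% in sham and 17.4% in injury. Called nuclei were kept, and clusters made mostly of them were dropped. Cell classes were set from fixed markers, and neuron clusters are called by 2 of their leading genes. Names and sizes may therefore differ from those of the study.

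UMIs were summed per class or cluster in Python 3.11.15. Levels have exact Poisson and ratios Clopper-Pearson intervals (scipy 1.17.1), at 95%, and list medians use a prior of 0.5 UMI. The counting was tested on simulated data. The members and lists were chosen with earlier results of these data known. Genes are named where they passed the fold (up to 15 per class and over clusters), where their fold over the median cluster was among the 15 largest, or as 42 members fixed by name. Pathway genes past the fold in neurons were to be named, and those in glia were named after their values were seen. TMM factors came from edgeR 4.0.16. Alternatives are given in the closing section. Signalling genes in astrocytes are not reported here.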

Additional observations from a re-analysis of the deposited data

Results flagged for a closer look

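In 4 members the glutamatergic and GABAergic classes moved in opposite directions with intervals that left out 0, a difference between the classes that was not tested. Sema5a had a log2 ratio, injury over sham, of 0.24 in glutamatergic and -0.12 in GABAergic neurons, a difference of 0.35. Slit2 had 0.18 and -0.17, a difference of 0.35. Sema6d had 0.02 and -0.20, a difference of 0.23. Ephb1 had 0.13 and -0.09, a difference of 0.22. All of these ratios are short of the fold. With each cluster given the same weight in both libraries, the glutamatergic ratio was 0.13 for Sema5a and 0.08 for Ephb1. It was -0.01 for Slit2 and -0.01 for Sema6d. Beside the GABAergic ratios above, which are without such weights, Slit2 and Sema6d no longer moved in opposite directions.

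Clusters outside the comparison, with 0 sham nuclei, held some members at 2-fold or more over every compared cluster of the injury library. Epha6 was at 6535 CPM in the cortex-like Neurod6/Dkk3 cluster, against 2358 in the highest of those. Epha7 was at 1223 CPM in the dentate-like Gpc4/Trpc6 cluster. Plxna4 was at 970.0 CPM in Neurod6/Dkk3 and 1506 in Gpc4/Trpc6. Slit3 was at 1883 CPM in Gpc4/Trpc6. With no sham nuclei, no ratio was formed.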

How the results depend on the processing

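No paired analysis was possible because the groups share fewer than 2 replicate numbers (1 library each). No alternative reversed a ratio among those checked, but single values moved. The cluster ratios checked, 58 values over all alternatives, cover only part of the 35 higher and 19 lower pairs. Whether the other pairs keep their direction was not checked. Slit3 in oligodendrocytes had no ratio with thinning or with free RNA subtracted, so its direction there is not known. Of 58 cluster ratios under the alternatives 8 moved beyond their interval, the furthest being Slit1 in Prkcd/Adgrf5, from 1.01 to 5.23 with free RNA subtracted, while Slit2 in Fgf10/Heg1 went from -0.97 to -0.30 with thinning and Unc5d in Chat/Nwd2 from 0.94 to 0.32 without doublets. Of 44 folds over the median cluster 9 moved by over 1.5 times, and with free RNA subtracted that of Ntng2 went from 58.7 to 269.7. The list medians stayed between -0.02 and 0.01 in glutamatergic and -0.06 and -0.02 in GABAergic neurons. In oligodendrocytes they lay between -0.21 and 0.10 and in astrocytes between -0.21 and 0.33. Counts of members past the fold were small, so most shifts are of 1 or 2 genes. In glutamatergic neurons the count of higher members, 0, became 1 with the mean CPM of single nuclei, without called doublets, with nuclei thinned to 3000 UMIs and at resolution 1.0. In GABAergic neurons the 2 higher became 1 with the mean CPM (neither Ntng2 nor Unc5b), 0 with thinning, and 3 with free RNA subtracted, the same cluster mix, at least 20 UMIs or no minimum, and the 1 lower became 3 without doublets, 3 with thinning, 2 with free RNA subtracted and 2 at resolution 1.0. Across the alternatives Sema5b ranged from -0.70 to -0.53, Ntng2 from 0.23 to 0.76 and Unc5b from 0.22 to 1.20. In oligodendrocytes the 1 higher became 3 with the mean CPM and 0 with thinning, free RNA subtracted or resolution 1.0 (Slit3 at 1.14 there, and at 0.37 without integration). The 1 lower became 0 with TMM scaling, mean CPM, thinning, no filter on nuclei or resolution 1.0, where the ratio of Sema7a stayed between -1.06 and -0.52, and 2 without integration or with no minimum of UMIs. Thinning left 38 sham oligodendrocytes and 35 sham astrocytes. In astrocytes the 0 higher became 1 with the mean CPM and 4 with free RNA subtracted, and the 0 lower became 1 with free RNA subtracted and 1 with no minimum. Of pairs of member and cluster, 35 higher and 19 lower became 56 and 33 with free RNA subtracted, 22 and 11 with thinning, and 53 and 32 with at least 20 UMIs. Leaving out Corin/Postn, an alternative chosen after seeing the data like the glutamatergic sum with Rspo3/Stk32b, gave 21 higher pairs, and 38 members with the same highest cluster in both libraries in place of 30. Except where built into the alternative, the cause was not tested. Both libraries are single pools, so differences between mice, dissection and operation cannot be told apart.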
